A study of Mus musculus with 24 samples.

Results

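Some of the kidney arrays of the Schlager mice carried transcripts of the adrenal gland, the organ that sits on the upper pole of the kidney, and these arrays were set against those that carried almost none. Of the 24 arrays, 11 were adrenal-rich and 8 were adrenal-poor, and the other 5 lay between the 2 classes. The classes were chosen by the readout itself: an array with a log2 value above 9 on the *Cyp11b1* probe set was taken as adrenal-rich and an array below 6 as adrenal-poor. *Cyp11b1* encodes the 11β-hydroxylase that makes corticosterone in the adrenal cortex. Because this gene chose the arrays, its difference between the classes, and that of every gene that moves with it, is given below as a description with no test.

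Kidneys of 24 mice aged 12 weeks were profiled on Affymetrix Mouse Gene 1.0 ST arrays, each array holding the RNA of a single animal. The 4 groups of 6 were male and female BPH/2J, the Schlager line selected for high blood pressure, and male and female BPN/3J, its normotensive control line. No mouse was treated, and all tissue was taken in the inactive period of the day. The deposited values are log2 expression after RMA, and a difference of 1 on this scale is 2-fold.

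The adrenal gland has an outer cortex and an inner medulla. In the cortex, cholesterol is carried into the mitochondrion by STAR and is turned into steroids by a chain of enzymes; the outermost zone, the zona glomerulosa, makes aldosterone and the wide zona fasciculata makes corticosterone under control of adrenocorticotropic hormone (ACTH). The chromaffin cells of the medulla make catecholamines from tyrosine and store them with chromogranins and secretogranins in dense granules. The kidney itself makes little or none of these enzymes and granule proteins, apart from some that both organs use.

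Promoters of the medulla genes are shown first, because the 4 of them that separated the classes and had a promoter in the reference table hold a short element, the cAMP response element (CRE, TGACGTCA) or a variant of it, close to the start of transcription. Each line gives 120 bases before and 20 bases after the annotated start from RefSeq (GRCm38.p6), 5′ to 3′ on the strand of the gene, and capitals mark the CRE or, in *Chga*, the variant TGACGTAA. *Chga*, *Chgb* and *Scg2* encode the granule proteins chromogranin A, chromogranin B and secretogranin II, and *Th* encodes tyrosine hydroxylase, the rate-limiting enzyme of catecholamine synthesis. *Cyp11a1*, the cortex gene of the side-chain cleavage enzyme that starts steroid synthesis, is shown for comparison, at 1 of its 2 annotated starts, and holds neither element there.
Chga, chr12:102554821-102554960, plus strand: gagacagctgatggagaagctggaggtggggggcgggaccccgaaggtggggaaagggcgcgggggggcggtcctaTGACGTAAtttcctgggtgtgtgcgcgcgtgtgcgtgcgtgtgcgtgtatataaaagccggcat
Chgb, chr2:132781522-132781661, plus strand: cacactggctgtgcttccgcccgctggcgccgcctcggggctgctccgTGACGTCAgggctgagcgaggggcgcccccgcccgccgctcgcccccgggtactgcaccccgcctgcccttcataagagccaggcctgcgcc
Th, chr7:142899976-142900115, minus strand: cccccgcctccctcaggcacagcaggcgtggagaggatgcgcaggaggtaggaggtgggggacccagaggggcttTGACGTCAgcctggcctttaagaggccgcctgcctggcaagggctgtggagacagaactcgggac
Scg2, chr1:79440007-79440146, minus strand: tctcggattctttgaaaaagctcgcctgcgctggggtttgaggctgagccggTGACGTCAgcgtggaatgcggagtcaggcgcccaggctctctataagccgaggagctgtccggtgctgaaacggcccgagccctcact
Cyp11a1, chr9:58014832-58014971, plus strand: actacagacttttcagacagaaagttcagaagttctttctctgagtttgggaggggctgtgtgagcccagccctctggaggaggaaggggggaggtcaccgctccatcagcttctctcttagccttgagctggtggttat

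The element began 72 bases before the start in *Chgb*, 45 in *Th* and 68 in *Scg2*, and the variant began 44 bases before the start in *Chga*. Both strands were searched over the 300 bases given for each promoter, and no run of 8 bases can match both the CRE and the variant. The CRE was present in 6 of the 21 windows of the medulla lists (28.6%; *Cartpt*, *Chgb*, *Pcsk1*, *Scg2*, *Slc18a2* and *Th*), in 0 of the 26 windows of the cortex lists and in 1.79% of all 32851 windows. The variant was present in 0.499% of all windows. Steroidogenic factor 1 (SF-1) is the chief transcription factor of steroid-making cells. The run AAGGTCA, a form of its element, was in 0 of the 26 cortex windows and in 4.72% of all windows. Only this exact run was searched. Elements of other spelling were not counted, so the 0 does not show that the cortex promoters lack SF-1 elements. Windows were given for 9 of the 18 genes that separated the classes, for 18 of 27 medulla genes and for 16 of 32 cortex genes. A match is a run of letters and not evidence of a bound factor.

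The first question was which mice the adrenal transcripts came with. *Cyp11b1* was above 9 in 8 of the female arrays and in 3 of the male arrays, and both classes were found in every group. Fewer adrenal cells and less RNA per adrenal cell cannot be told apart in bulk tissue. Rich and poor arrays numbered 2 and 3 in BPN/3J males, 1 and 2 in BPH/2J males, 4 and 2 in BPN/3J females, and 4 and 1 in BPH/2J females. Just inside the upper threshold the lowest rich array was at 9.92 (BPH/2J male 3), and just outside it the highest array between the classes was at 8.63 (BPH/2J male 4). At the lower threshold the highest poor array was at 5.56 (BPN/3J male 1), and the lowest array left out was at 6.33 (BPH/2J female 5). The gap between the 8 poor arrays (4.78 to 5.56) and the 11 rich arrays (9.92 to 12.15) was therefore wide, but the 5 arrays between the classes filled part of it.

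**Figure D1:**
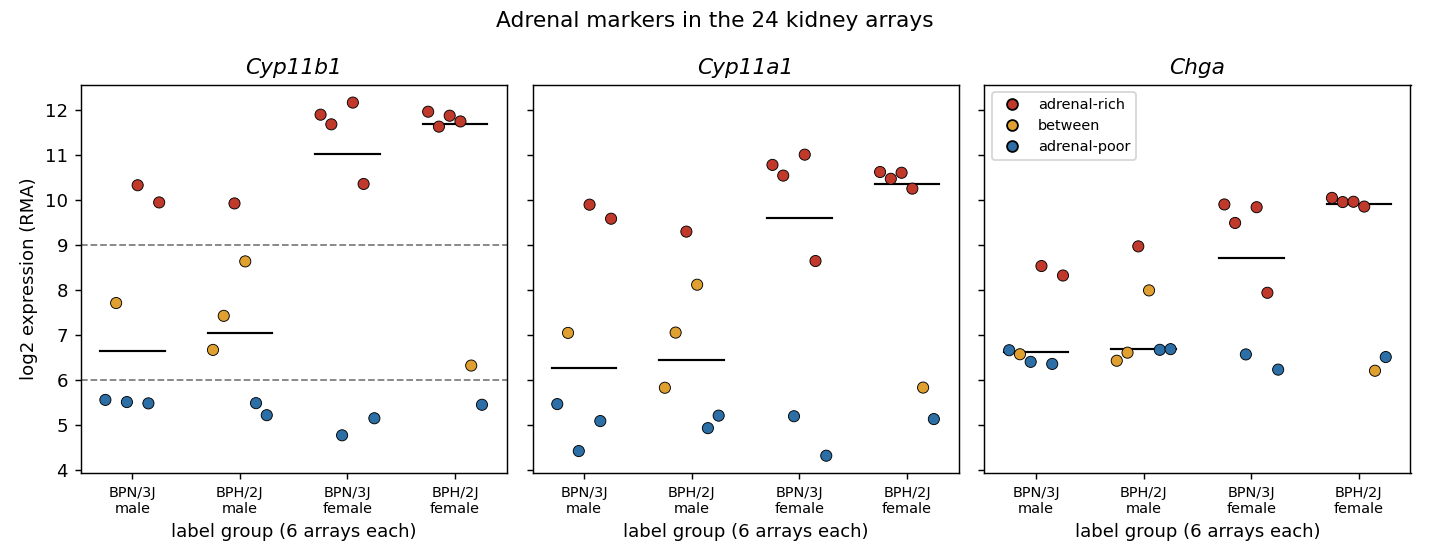
Log2 expression (RMA, y axis) of *Cyp11b1*, *Cyp11a1* and *Chga* in each of the 24 arrays, by label group (x axis, 6 arrays each), coloured by class; bars are group medians and dashed lines are the 2 *Cyp11b1* thresholds of 9 and 6. In each group some arrays stand far above the others, and the arrays that are high for *Cyp11b1* are also high for *Cyp11a1* and *Chga*.

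Within a label group *Cyp11b1* spread over several log2 units. In BPN/3J males it was 5.49 at the lowest, and the rich arrays 4 and 6 were at 10.32 and 9.94. In BPH/2J males it was 5.23 to 9.92, with array 3 highest. In BPN/3J females the rich arrays 1, 2, 4 and 5 were at 11.89, 11.67, 12.15 and 10.35 and the poor arrays 3 and 6 at 4.78 and 5.16. In BPH/2J females the rich arrays 1 to 4 were at 11.95, 11.62, 11.86 and 11.74, array 5 lay between the classes and array 6 was poor, at 5.46. The rich females were higher than the rich males with the exception of BPN/3J female 5, which was level with BPN/3J male 4.

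No difference between label groups in the 3 markers passed its test. In exact permutation tests over 924 regroupings of 6 arrays against 6 (two-sided, 12 tests of 3 markers in 4 comparisons), 0 passed after Benjamini-Hochberg adjustment and 0 had an unadjusted p under 0.05. The mean of *Cyp11b1* was 9.83 ± 3.06 (SD, n = 6) in BPH/2J females and 7.23 ± 1.82 (SD, n = 6) in BPH/2J males, a difference of 2.60 (exact permutation p = 0.119, adjusted p = 0.511). In BPN/3J it was 9.33 ± 3.44 (SD, n = 6) in females and 7.42 ± 2.27 (SD, n = 6) in males, a difference of 1.91 (exact permutation p = 0.266, adjusted p = 0.639). Between the strains *Cyp11b1* differed by 0.49 in females and by -0.20 in males (exact permutation p = 0.63 and p = 0.857). By medians the sex difference of *Cyp11b1* was larger, 4.63 in BPH/2J (exact permutation p = 0.104, adjusted p = 0.429) and 4.37 in BPN/3J (exact permutation p = 0.273, adjusted p = 0.655). *Chga* was higher in BPH/2J females by 1.53 in the mean (exact permutation p = 0.11, adjusted p = 0.511) and by 3.22 in the median (exact permutation p = 0.0606, adjusted p = 0.429). In BPH/2J the mean sex difference of *Cyp11b1* was above the SD of the males and below that of the females. In BPN/3J it was below both SDs, and the strain differences of *Cyp11b1* were smaller in size than any group SD. With 6 arrays a group these differences did not pass, which does not show that the sexes or the strains are alike.

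With the strain-by-sex group as a covariate, 21 of 28853 probe sets (0.0728%) were at least 2-fold higher in the rich class with no overlap between the classes, and 0 were lower by this rule. They stand for 18 named genes, with *Cyp21a1* on 2 probe sets, and 2 of the probe sets had no symbol. Of the 18 genes, 14 were in the adrenal lists and 4, *Akr1cl*, *Mgarp*, *Peg10* and *Rbp4*, were not. *Cyp11b1* is among the 14, and the rule itself set its classes apart. Over all probe sets the median difference was -0.012 log2. By size alone, with overlap allowed, 142 probe sets were 2-fold different and 142 of these were higher in the rich class.

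**Figure D2:**
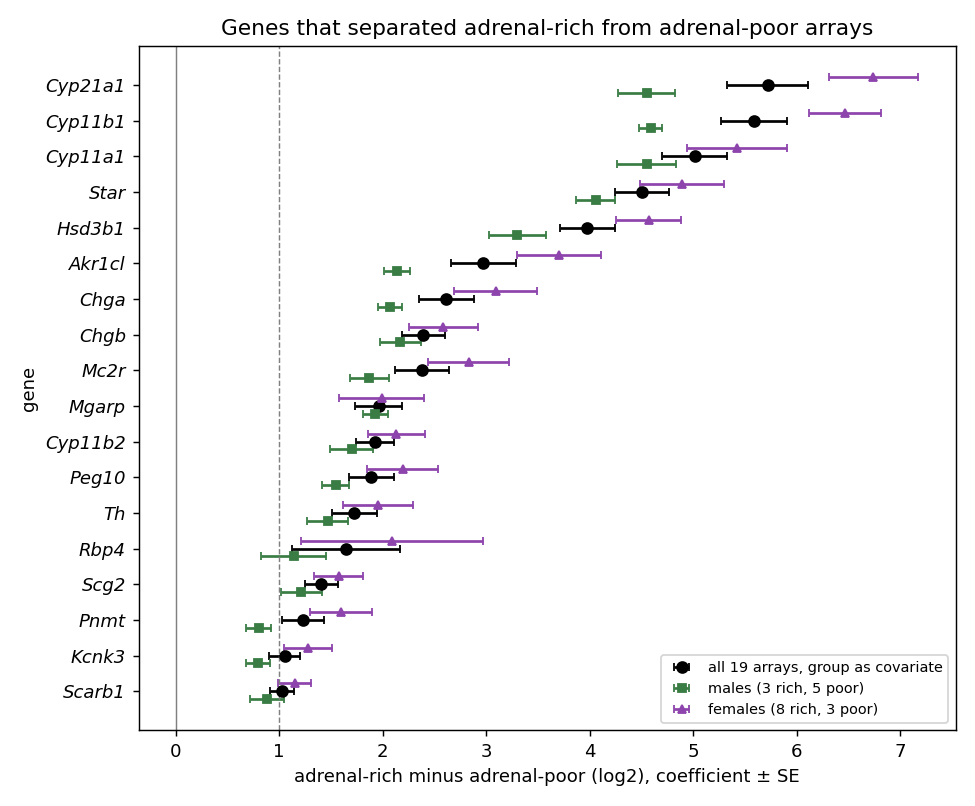
Coefficient of adrenal-rich minus adrenal-poor in log2 (x axis) with its SE for the 18 named genes (y axis) that were at least 2-fold higher without overlap, over all 19 arrays with the group as a covariate (circles), in males (squares) and in females (triangles); the dashed line marks 2-fold. *Cyp21a1*, *Cyp11b1* and *Cyp11a1* have the largest differences, and each gene has a larger difference in females than in males. *Cyp21a1* is drawn by the probe set with the larger difference.

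The steroid enzymes of the cortex had the largest differences. *Cyp21a1*, the 21-hydroxylase, ran from 4.74 to 6.02 in the poor arrays (median 5.53) and from 9.83 to 12.43 in the rich arrays (median 11.86). Its class difference was 5.72 ± 0.39 log2 (SE, 11 against 8 arrays), or 52.7-fold. The other *Cyp21a1* probe set, which also passed the rule, differed by less, 2.44 ± 0.29 log2 or 5.43-fold. *Cyp11a1* was at 4.33 to 5.47 in poor arrays (median 5.12) and from 8.64 upward in rich arrays (median 10.46, highest in BPN/3J female 4), a difference of 5.02 ± 0.31. The classes were far apart in both genes, and the 5 arrays between them were also between them in *Cyp11a1* (5.83 to 8.12).

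*Star*, the carrier of cholesterol, was at 5.60 to 6.07 in poor and 9.46 to 11.47 in rich arrays, a class difference of 4.50 ± 0.26. *Hsd3b1*, the 3β-hydroxysteroid dehydrogenase, was at 5.07 to 5.86 in poor and 8.39 to 10.52 in rich arrays, a difference of 3.98 ± 0.27. *Cyp11b1*, which set the classes, differed by 5.59 ± 0.32. *Cyp11b2*, the aldosterone synthase, had a smaller difference of 1.93 ± 0.18, from 4.95 to 5.78 in poor and from 6.45 to 8.12 in rich arrays. Of the 8 measured steroid enzymes 6 were at least 2-fold higher without overlap, and the list median was 4.24. *Cyp11b1* is counted in both figures, and by the rule its classes could not overlap. The members outside this count were *Hsd3b6*, at 1.61 ± 0.28 with overlap, and *Fdx1*, the electron donor ferredoxin, at 0.08 ± 0.03 in a tissue where the poor arrays were already at 8.62 to 9.18. *Cyp11b1* and *Cyp11b2* are close copies of each other, as are *Hsd3b1* and *Hsd3b6* and, for *Cyp21a1*, a pseudogene, and probes of one may also bind the transcript of the other.

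The genes that bring cholesterol to the cortex and control it followed less. *Scarb1*, the receptor that takes up cholesterol from high-density lipoprotein, was at 8.05 to 8.64 in poor and 9.11 to 9.82 in rich arrays, a difference of 1.03 ± 0.12. It was the 1 gene of the 10 measured for cholesterol supply that passed the rule, and the list median was 0.105. *Mc2r*, the ACTH receptor, was at 4.67 to 5.45 in poor and 6.64 to 8.66 in rich arrays, a difference of 2.38 ± 0.26. It was the 1 of 8 regulators that passed. *Mrap*, its accessory protein, differed by 0.80 ± 0.19 and *Nr5a1*, steroidogenic factor 1, by 0.64 ± 0.16, both with overlap.

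Genes of the zona glomerulosa were present with those of the other zones. *Kcnk3*, a potassium channel of these cells, was at 7.64 to 7.98 in poor and 8.41 to 9.44 in rich arrays and differed by 1.05 ± 0.15. *Vsnl1* differed by 1.68 ± 0.21 and *Kcnk9* by 0.99 ± 0.16, both with overlap. With *Cyp11b2* and *Kcnk3*, 2 of the 8 measured genes of the list passed, and the list median was 1.02. The capsule list (*Rspo3*, *Gli1* and *Nr2f2*) had 0 of 3 and a median of 0.02, and the X-zone list 0 of 2 and a median of -0.08. *Akr1c18*, a marker of the X-zone that breaks down progesterone, was at 10.09 to 13.40 in the poor arrays, and at 9.51 to 13.38 in the rich arrays.

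The medulla came with the cortex. *Chga* was at 6.24 to 6.69 in poor arrays (median 6.54) and at 7.94 to 10.04 in rich arrays (median 9.84), a difference of 2.61 ± 0.26 log2, or 6.12-fold. *Chgb* was at 5.29 to 6.05 and 6.97 to 8.85, a difference of 2.39 ± 0.21. *Scg2* was at 5.36 to 5.59 and 6.26 to 7.49, a difference of 1.41 ± 0.16. All 3 granule genes, whose promoters are printed above, had no value shared between the classes, and 3 of the 13 measured granule genes passed the rule. *Npy*, a peptide of the same granules, did not overlap either but differed by 0.96 ± 0.14, just under 2-fold.

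Of the catecholamine enzymes, *Th* was at 5.44 to 6.14 in poor and 6.40 to 8.15 in rich arrays and differed by 1.73 ± 0.21. *Pnmt*, which makes adrenaline from noradrenaline, was at 5.27 to 5.72 and 5.95 to 7.67 and differed by 1.23 ± 0.20. *Dbh*, which makes noradrenaline, was at 5.29 to 6.05 and 5.86 to 7.51, with overlap. *Ddc* and *Slc18a1*, the decarboxylase and a vesicular amine transporter, were at 10.69 or above in the poor arrays and differed by -0.15 ± 0.06 and 0.01 ± 0.04. With *Th* and *Pnmt*, 2 of 8 genes passed. Among transcription factors of the medulla 0 of 6 passed (median 0.03), with the largest difference in *Hand2* (0.26 ± 0.08). Among neuronal genes of chromaffin cells 0 of 12 passed and 9 were higher in sign (median 0.14), with the largest in *Chrna3*, a nicotinic receptor subunit (0.72 ± 0.20), and 0.31 ± 0.12 in *Stmn2*. In all, 14 of the 76 measured genes of the adrenal lists passed and 60 were higher in sign, with a median of 0.177. These counts include *Cyp11b1*, which passed because it set the classes. Over all probe sets 21 of 28853 passed and 12066 were higher in sign, with a median of -0.012.

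Another 4 genes, outside the lists, passed the same rule. *Akr1cl*, an aldo-keto reductase, was at 4.25 to 4.60 in poor and 6.38 to 8.73 in rich arrays, a difference of 2.97 ± 0.31 that placed it between *Hsd3b1* and *Chga*. *Mgarp*, a mitochondrial protein of steroid-making cells, differed by 1.96 ± 0.23 and *Peg10*, an imprinted gene derived from a retrotransposon, by 1.89 ± 0.21. *Rbp4*, the retinol carrier made mainly by liver, was at 7.46 to 8.52 in poor and 8.63 to 12.43 in rich arrays. Its difference was 1.65 ± 0.52, or 0.45 ± 0.16 with the mean of the hepatocyte genes as a covariate, and its highest values were in BPN/3J females 2 and 5 (12.17 and 12.43), the arrays highest in liver genes. The single gene without overlap that was lower in rich arrays was *Spef1l*, at -0.30 ± 0.05. *Dlk1* and *Meg3*, imprinted neighbours chosen after their values were seen, differed by 0.97 ± 0.14 and 0.62 ± 0.10 with overlap, while the 42 probe sets between *Dlk1* and *Dio3* had a median of 0.0436.

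The 5 arrays between the classes held 5 or more of 8 cortex genes above the poor arrays, and 4 of them held 2 or fewer of 5 medulla genes. *Cyp11b1* was left out of the 8. It is a cortex gene and its value placed these arrays between the classes, so the cortex counts are tied to the rule. Both counts are a description. In BPH/2J male 4, the array nearest to the upper threshold, 8 of 8 cortex genes and 5 of 5 medulla genes that separated the classes were above the highest poor array, with *Chga* at 7.99. In BPN/3J male 2, where *Cyp11b1* was 7.71, 5 of 8 cortex genes were above it but 0 of 5 medulla genes, and *Chga* was 6.58. BPH/2J males 1 and 2 had 6 and 5 of the cortex genes and 2 medulla genes each, with *Chga* at 6.43 and 6.61. BPH/2J female 5 had 7 of the cortex genes and only *Scg2* of the medulla genes, with *Chga* at 6.21. *Chga* was thus within or below the range of the poor arrays in 4 of these 5 arrays. The class differences of the medulla genes (1.23 to 2.61) were also smaller than those of the steroid enzymes named above other than *Cyp11b2*, *Hsd3b6* and *Fdx1*. Genes with smaller differences clear the poor arrays less easily, so these counts do not compare medulla with cortex content.

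**Figure D3:**
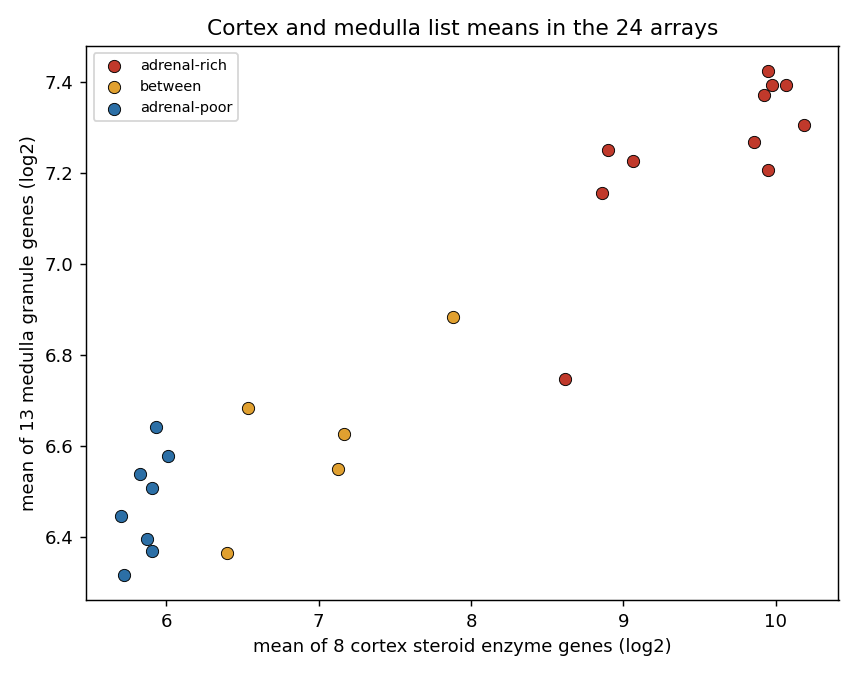
Mean log2 expression of 8 cortex steroid enzyme genes (x axis) and of 13 medulla granule genes (y axis) in each of the 24 arrays, coloured by class. Poor arrays lie at 5.70 to 6.01 on the cortex axis and 6.32 to 6.64 on the medulla axis, and rich arrays at 8.62 to 10.19 and 6.75 to 7.42; the rich array lowest on both axes is BPN/3J female 5.

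Kidney genes differed little in size between the classes. The 17 tubule genes had a median difference of -0.03, a lowest of -0.11 and a highest of 0.03, with 0 that passed. In sign 15 of the 17 were lower in the rich class, as were 16787 of all 28853 probe sets. *Slc34a1*, the phosphate transporter of the proximal tubule, was at 13.60 to 13.72 in poor and 13.54 to 13.70 in rich arrays. *Umod*, the marker of the thick ascending limb, was at 13.48 to 13.71 and 13.45 to 13.76. Both classes thus held the markers of kidney at a high level. Podocyte genes had a median of -0.12 (0 of 5 passed, 4 lower in sign). Genes that respond to corticosteroids had a median of -0.07 (0 of 8 passed), with *Sgk1*, a target of aldosterone, at -0.18 ± 0.07 and *Fkbp5*, a target of the glucocorticoid receptor, at -0.04 ± 0.09. *Pdk4*, a kinase that the glucocorticoid receptor also induces, was the 1 member higher in sign, at 0.36 ± 0.15.

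Transcripts of other tissues moved with the adrenal classes in part. The 16 hepatocyte genes were higher in the rich class in all 16 in sign, with a median of 1.98, but the classes overlapped in each of them and 0 passed. The mean of the list was 6.33 to 7.24 in poor arrays and 6.23 to 11.81 in rich arrays, and both arrays above 11 were rich BPN/3J females, numbers 2 and 5. BPH/2J female 4 and BPN/3J female 1, among others, were rich in adrenal transcripts with a hepatocyte mean of 6.23 and 6.61, within or below the range of the poor arrays. *Alb*, the gene of serum albumin, was at 8.45 to 10.26 in poor and 9.55 to 13.89 in rich arrays. With the mean of the hepatocyte list as a covariate, *Cyp21a1* differed by 5.99, *Cyp11a1* by 5.31 and *Chga* by 2.94, no less than without it.

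*Cyp17a1*, the 17α-hydroxylase that mouse gonads use and the mouse adrenal cortex lacks, was at 10.66 and 10.45 in the same BPN/3J females 2 and 5 and at 5.59 to 6.26 in the other arrays. These are the arrays highest in hepatocyte genes. With the mean of the hepatocyte list as a covariate, the *Cyp17a1* class difference went from 0.76 ± 0.69 to -0.68 ± 0.41. The list of gonadal steroid cells, which holds this gene, had a median of 0.07 and 0 of 5 passed. Its other members *Hsd17b3*, *Fshr*, *Amh* and *Foxl2* differed by 0.11, 0.07, 0.01 and 0.07. The tissue that *Cyp17a1* came from was not tested. White fat genes had a median of 0.59 (0 of 7 passed), with *Adipoq*, the adiponectin gene, at 0.70 ± 0.17. Brown fat genes had a median of 0.47 (0 of 7 passed), with *Ucp1*, the thermogenic uncoupling protein, at 0.72 ± 0.39. Lymphocyte genes had a median of 0.25 (0 of 6 passed). Schwann cell (0 of 6), acinar pancreas (0 of 6) and skeletal muscle (0 of 5) genes had medians of -0.0071, -0.0031 and -0.020. Their part in the class differences was not tested.

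**Figure D4:**
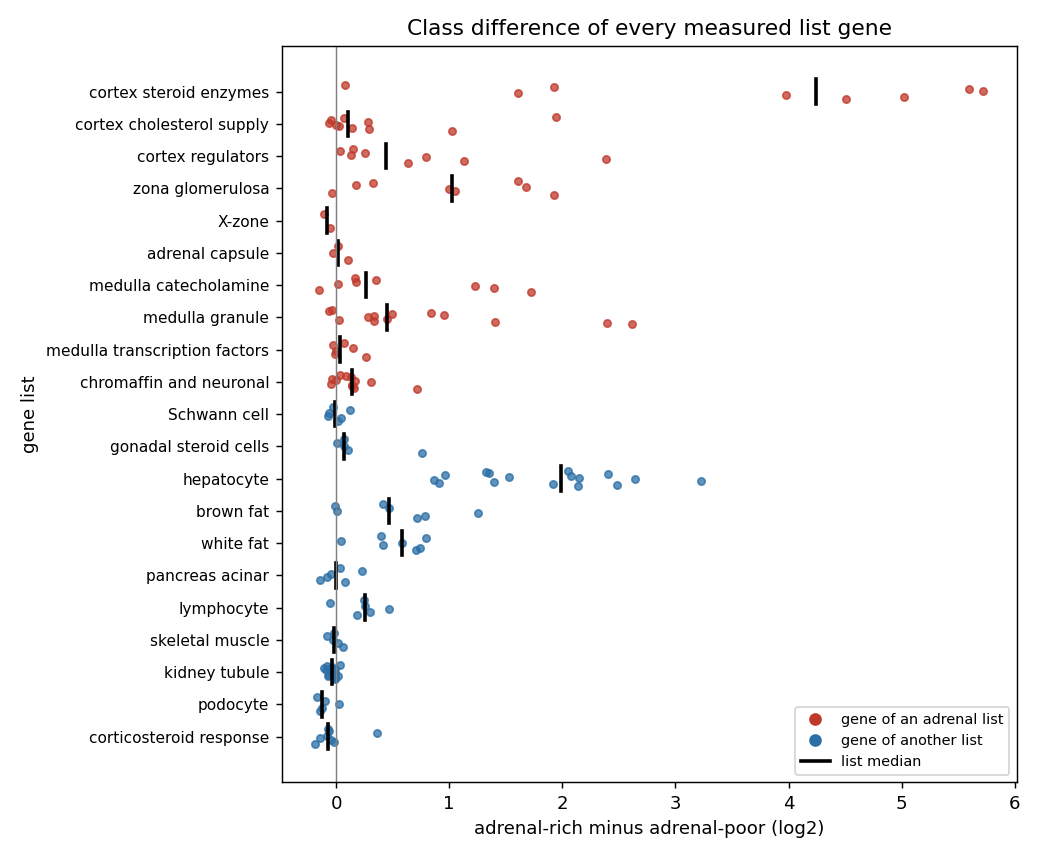
Class difference in log2 (x axis, adrenal-rich minus adrenal-poor with the group as a covariate) of each measured gene, by gene list (y axis), for the adrenal lists (red) and other lists (blue); black bars are list medians. The cortex steroid enzymes lie furthest to the right with a median of 4.24, and the hepatocyte list has a median of 1.98. The tubule, muscle and pancreas lists have medians near 0.

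Males and females could be looked at apart. All 21 probe sets were higher in the rich class in males and in females, 18 of them at least 2-fold in both sexes, and all 21 had the larger difference in females. *Cyp21a1* differed by 4.55 ± 0.28 in males (3 rich and 5 poor arrays) and by 6.74 ± 0.43 in females (8 rich and 3 poor). *Chga* differed by 2.07 ± 0.12 in males and by 3.09 ± 0.40 in females. *Nr0b1*, a repressor of steroidogenic factor 1 also called DAX1, stood at 5.28 to 5.56 in the 3 rich males, next to 4.92 to 5.44 in the 5 poor males, and at 5.79 to 7.61 in the 8 rich females. It thus differed by 0.22 in males and by 1.93 in females.

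The class-by-sex interaction gives the size of this difference between the sexes. In limma over 19 arrays, 0 of 28853 probe sets (0%) passed at a Benjamini-Hochberg adjusted p under 0.05, 1611 (5.58%) had an unadjusted p under 0.05, among them 13 of the 76 adrenal genes, and the smallest adjusted p was 0.226. The classes were cut on *Cyp11b1*, and the rich females were at 10.35 to 12.15 for this gene against 9.92 to 10.32 in the rich males. The interactions of genes that move with it therefore hold this distance too, and their sizes are given as a description. *Nr0b1* had an interaction of 1.72 ± 0.39. *Cyp2f2*, a cytochrome P450 chosen after its values were seen, had 2.47 ± 0.40, from 0.68 in males to 3.15 in females. The count of 0 was 11 without BPN/3J females 2 and 5, the arrays high in liver genes, and 15 without BPN/3J female 5 alone. *Cyp11b1* itself was among the 11 and among the 15, so neither count is read as a sex difference.

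Fitted instead as a slope on the *Cyp11b1* value over all 24 arrays, the interaction with sex passed for 0 probe sets, with 1677 at an unadjusted p under 0.05 and a smallest adjusted p of 0.29. *Nr0b1* had a slope higher in females by 0.28 ± 0.05 log2 per log2 of *Cyp11b1* (limma adjusted p = 0.307), and *Cyp21a1* by 0.05 ± 0.05 (limma adjusted p = 0.947). At a like level of *Cyp11b1*, BPN/3J female 5 (10.35) and BPN/3J male 4 (10.32) had *Nr0b1* at 5.79 and 5.48, *Akr1cl* at 6.68 and 6.53, *Cyp11a1* at 8.64 and 9.89, and *Chga* at 7.94 and 8.53. These are 2 single arrays, and no test was made of their difference.

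The class-by-strain interaction passed for 0 probe sets (0%) as well, with 1650 (5.72%) at an unadjusted p under 0.05, 5 of them in the adrenal lists, and a smallest adjusted p of 0.255. Without BPH/2J female 6, the single poor array of its group, 2 passed, neither of them in the adrenal lists. BPH/2J males had 1 rich array. Here too the classes were cut on *Cyp11b1*, and the slope uses its value. The interactions of single genes, here and in the next paragraph, are therefore read as a description. *Hsd3b6*, a dehydrogenase of the zona glomerulosa, is given in every rich array. It was at 8.501, 8.13, 8.05 and 8.15 in the rich BPH/2J females 1 to 4 and at 6.44, 7.37, 7.04 and 5.62 in the rich BPN/3J females 1, 2, 4 and 5. The strains did not overlap there, and the rich BPH/2J male (7.59) was above both rich BPN/3J males (6.66 and 6.78). The share of all probe sets without overlap in these arrays was not counted. Over all female arrays 14.5% of probe sets passed between the strains. The lowest value, 5.62, was in BPN/3J female 5, the rich female lowest in *Cyp11b1* (10.35). The *Hsd3b6* interaction was 1.43 ± 0.41 (limma adjusted p = 0.766). As a slope on *Cyp11b1* it was 0.25 ± 0.05 (limma adjusted p = 0.31), so it did not pass over all probe sets. Brown fat genes moved with the same arrays: the list mean was 7.997 to 8.80 in the rich BPH/2J females and 7.04 to 7.40 in the rich BPN/3J females, and *Ucp1* was at 9.29 to 10.51 and 5.22 to 6.196. *Ucp1* had a class-by-strain interaction of 1.94 ± 0.60 (limma adjusted p = 0.766). The part of brown fat in the *Hsd3b6* values was not tested.

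*Cyp11b2*, which marks the same zone, ran the other way in value. It was at 8.07, 7.82, 8.12 and 6.77 in the rich BPN/3J females and at 7.16, 7.14 and 7.14 in the rich BPH/2J females 1, 3 and 4, with number 2 just lower, and the interaction was -0.29 ± 0.35 (limma adjusted p = 0.962). *Pnmt* was at 7.54, 7.67, 7.59 and 6.25 in the rich BPN/3J females and at 6.82, 7.06, 6.71 and 6.76 in the rich BPH/2J females, with an interaction of -0.25 ± 0.39 (limma adjusted p = 0.972). In both genes 3 of the 4 BPN/3J arrays were above all BPH/2J arrays and the other, number 5, was below them.

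**Figure D5:**
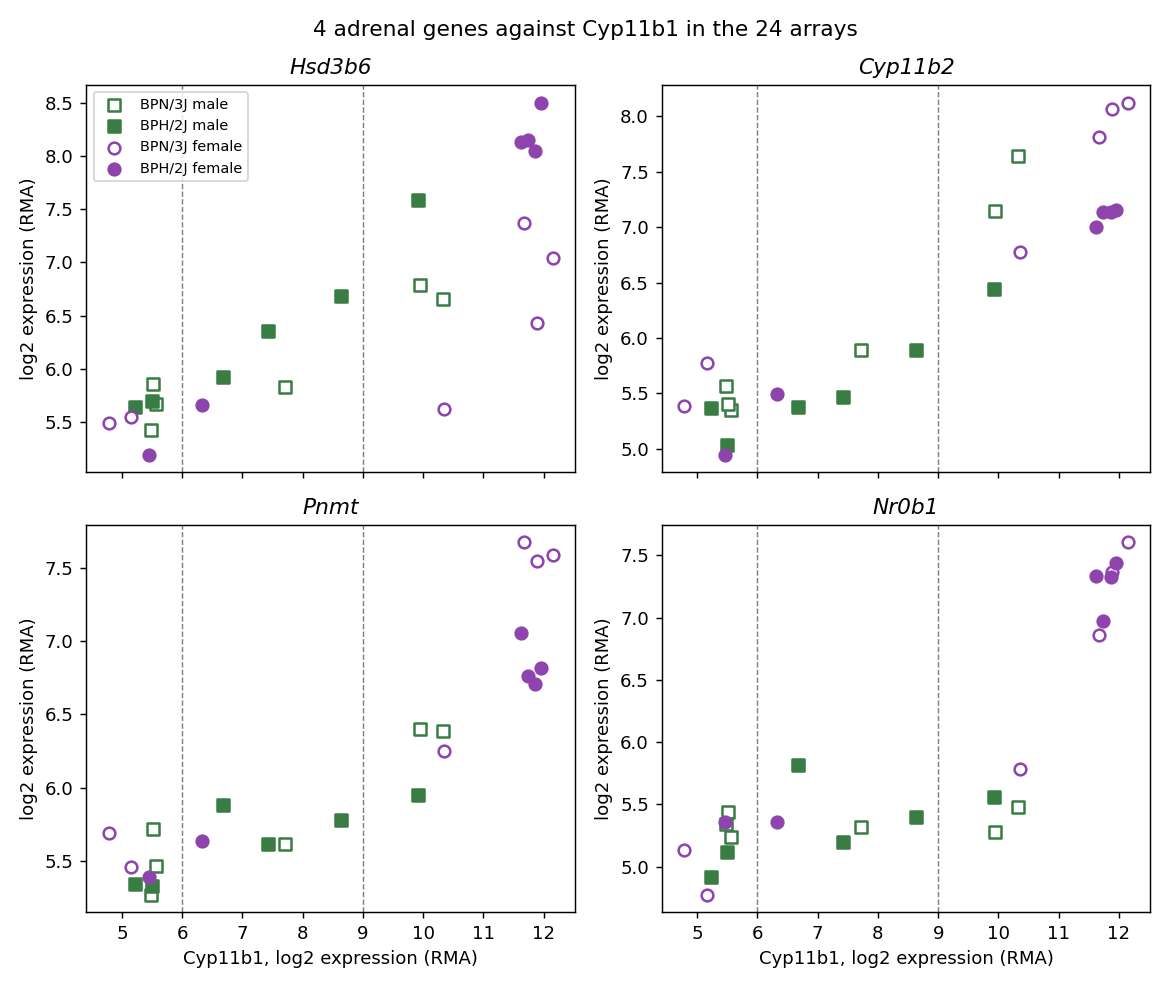
Log2 expression of *Hsd3b6*, *Cyp11b2*, *Pnmt* and *Nr0b1* (y axes) against *Cyp11b1* (x axes, log2) in the 24 arrays, by strain and sex; dashed lines are the thresholds of 6 and 9. In the rich females *Hsd3b6* is at 8.05 to 8.501 in BPH/2J and at 5.62 to 7.37 in BPN/3J, and *Nr0b1* is at 5.28 to 5.56 in the rich males.

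Next the adrenal genes were read in the comparisons the study was made for. Between the strains, limma passed 4381 probe sets in males (15.2%) and 4180 in females (14.5%) at a Benjamini-Hochberg adjusted p under 0.05. Of the 76 adrenal genes 8 passed in males (10.5%; 5 higher in BPH/2J) and 15 in females (19.7%; 11 higher in BPH/2J). Of the 19 named probe sets that separated the classes, 0 passed in either sex. They were chosen for a wide spread between arrays, and every label group held both classes. A strain test could therefore hardly pass them, and nothing is concluded from this count. In sign, 7 of the 19 were higher in BPH/2J among males (median -0.0823) and 16 among females (median 0.238). Of the adrenal genes that did pass, 6 of 8 in males and 11 of 15 in females had a mean above 7 log2 in the adrenal-poor arrays. The share of all 76 with such a mean was not taken, so whether the passing genes differ from the others in this is left unsaid. All 8 in males and all 15 in females had a class difference under 0.5 log2 in size. Of all 76 adrenal genes, passed or not, 25 were above 0.5 log2, and of all 28853 probe sets 294 were. The count of 8 was 4 without BPN/3J male 2 and 5 without BPH/2J male 2 or without BPH/2J male 6.

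*Akr1c18* was lower in BPH/2J by 2.46 ± 0.14 in males (limma adjusted p = 2.72e-08) and by 1.02 ± 0.15 in females (limma adjusted p = 4.66e-04). *Pik3c2g*, a lipid kinase on the same X-zone list, was lower by 0.66 ± 0.05 and 0.64 ± 0.05. *Nefl*, a neurofilament, was higher in BPH/2J by 0.66 ± 0.13 in males and by 0.89 ± 0.12 in females. *Ddc* was lower by 0.82 ± 0.04 in females. With the *Cyp11b1* value as a covariate, 4290 probe sets passed in males and 4269 in females, of which 4149 and 4021 had also passed without it. With the rich arrays left out, 2978 passed in males (5 against 4 arrays) and 551 in females (2 against 2), of which 2786 and 524 had also passed with them. Of the genes whose difference held in quantitative PCR, 14 were measured here. All 14 passed in both sexes with and without the covariate, and the largest change in a difference was 0.025 log2. The paper took these genes from those it had called in both sexes on these same arrays. Their passing was therefore largely set in advance, and nothing is concluded from the count of 14.

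Between the sexes, limma passed 8349 probe sets in BPH/2J (28.9%) and 8424 in BPN/3J (29.2%). Of the 76 adrenal genes 26 passed in BPH/2J (34.2%; 20 higher in females) and 17 in BPN/3J (22.4%; 10 higher in females), and the count of 26 was 17 without BPH/2J female 3 or without BPH/2J female 4. The 19 named probe sets that separated the classes were all higher in females in sign in both strains, with medians of 1.47 and 1.18 log2, but 3 passed in BPH/2J (*Kcnk3*, *Scarb1* and *Peg10*) and 0 in BPN/3J. Their wide spread within a group comes with the way they were chosen and limits these counts too. *Kcnk3* was higher in BPH/2J females by 0.79 ± 0.26 (limma adjusted p = 0.0367) and by 0.04 without the adrenal-rich arrays, which left 2 females against 5 males. *Nr0b1* was higher in BPH/2J females by 1.30 ± 0.38 (limma adjusted p = 0.0201), by 0.61 with the *Cyp11b1* value as a covariate (limma adjusted p = 0.0488), and by 0.07 without the rich arrays. Leaving out the rich arrays takes away the high values of both genes by construction, so these last values are a description and no test of where the sex difference comes from.

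Of the adrenal genes that passed between the sexes, 19 of 26 in BPH/2J and 16 of 17 in BPN/3J had a mean above 7 log2 in the poor arrays. Here too the share over all adrenal genes was not taken. *Cpe*, a carboxypeptidase that trims peptide hormones, was lower in females by 1.28 ± 0.11 in BPH/2J and 1.52 ± 0.17 in BPN/3J (limma adjusted p = 1.80e-06 and 1.72e-05). *Ddc* was higher in females by 0.60 ± 0.05 and 1.19 ± 0.08, and *Slc18a1* lower by 0.64 ± 0.05 and 0.70 ± 0.05. *Akr1c18* was higher in females by 2.16 ± 0.20 and 0.72 ± 0.05. In all, 35 adrenal genes passed at least 1 of the 4 label comparisons, of which 29 had a class difference under 0.5 log2 in size and 2 (*Kcnk3* and *Scarb1*) separated the classes. Of all 76 adrenal genes, 25 had a class difference above 0.5 log2 and 14 separated the classes. With the *Cyp11b1* value as a covariate the sex calls were 7090 in BPH/2J and 7936 in BPN/3J, of which 6610 and 7451 had also passed without it. With the rich arrays left out they were 4116 (2 females against 5 males) and 3684 (2 against 4), of which 3746 and 3441 had also passed with them. The 4 comparisons share arrays in pairs, so their counts are not independent.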

How the data were processed

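Kidney RNA of 24 mice was measured with 1 Affymetrix Mouse Gene 1.0 ST array each. The authors deposited log2 values for 28853 probe sets after RMA, whose version was not given in the sources used here. These values were used as they stand, since RMA had already corrected background and set the arrays on a common scale (medians 6.89 to 6.97). RMA can compress the differences of dim genes, so differences of genes near the floor may be understated. Arrays of a group correlated at r = 0.981 to 0.997 over probe sets, and 0 pairs were identical. Groups and numbers came from the labels. The labels do not describe shared litters or array batches, and p-values measure the spread between these mice.

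Symbols came from the platform annotation: 21159 probe sets (73.3%) had exactly 1 symbol, 1881 several and 5813 none. The probe set with 1 symbol and the highest mean stood for a gene, and 76 of 86 listed adrenal genes had one. The members, gene lists and tests were chosen with earlier results of these data known.

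The class difference was the rich coefficient in a linear model with the strain-by-sex group (limma 3.58.1, R 4.3.3), counted at 2-fold without overlap, with no test. Label comparisons (12 arrays) and class interactions were tested by limma with Benjamini-Hochberg adjustment over all probe sets at 0.05. Single markers were tested by exact permutation. Named genes were the 3 markers in every array, up to 6 members per adrenal list by size of the class difference, the 15 largest differences outside the lists, adrenal members called in label comparisons, up to 4 members of other lists by level, and genes upheld by qPCR in the paper whose call changed. Fits were tested on simulated data. Alternatives were other thresholds and folds, covariates, normalisations, dim filters, the methods' t-test, the replicate number as a block and leaving out arrays. Leaving out BPN/3J females 2 and 5 together and fitting females only were chosen after seeing the data. Figures were drawn with matplotlib 3.10.9.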

Additional observations from a re-analysis of the deposited data

Results flagged for a closer look

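In groups of 6 arrays, 8 of 196 gene and group combinations (49 genes in 4 groups) held 1 array far from the other 5, where chance alone flags about 1 in 20, or 9.8. In BPH/2J male 1, which lay between the adrenal classes, *Cyp2f2* (9.486 log2), *Rbp4* (10.127) and *Apoc1* (9.621) stood above the next arrays at 8.124, 8.925 and 8.027, and its hepatocyte mean was 9.25. In BPH/2J male 3, the single rich array of its group, *Vsnl1* was at 6.9 against 5.847 in the next array, and *Meg3* was at 6.99 against 6.577. In BPN/3J male 3, *Retn*, the resistin gene of fat, was at 7.845 below the next array at 8.983, and *Fdx1* was at 8.804 below 8.968. In BPH/2J female 3, *Slco1a1*, an organic anion transporter, was at 5.412 against 4.614 in the next array.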

How the results depend on the processing

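The class difference (21 probe sets, 14 adrenal genes) gave 10 probe sets and 8 genes at 4-fold, 142 with overlap allowed, 87 in males only, 45 in females only and 129 as a slope on *Cyp11b1* by size alone. With arrays above 8 against arrays below 7 it gave 17. Leaving out single arrays gave 19 (without BPN/3J female 6) to 30 (without BPN/3J female 5) probe sets and 12 to 19 genes.

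In the label comparisons, Bonferroni adjustment left 740 probe sets (2 adrenal genes) between strains in males, 681 (3) in females, and 1361 (7) and 1367 (4) between sexes in BPH/2J and BPN/3J. The methods' t-test with Bonferroni adjustment left 447 (1), 398 (2), 811 (2) and 833 (3), and with Benjamini-Hochberg adjustment 17 adrenal genes for sex in BPH/2J. Without the adrenal-rich arrays, which left 2 females in each strain, 551 (5) passed between strains in females, 4116 (17) between sexes in BPH/2J and 3684 (11) in BPN/3J; fewer arrays were fitted there. Leaving out single arrays gave 3711 to 4111 (4 to 8 adrenal genes) between strains in males, 3502 to 3925 (12 to 16) in females, 7357 to 7942 (17 to 35) between sexes in BPH/2J and 7582 to 8135 (15 to 18) in BPN/3J. The adrenal genes numbered 4 without BPN/3J male 2, 5 without BPH/2J male 2 or 6, 17 without BPH/2J female 3 or 4, and 35 without BPH/2J female 6.

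The class-by-strain interaction passed for 0 to 2 probe sets with single arrays left out (2 without BPH/2J female 6) and the class-by-sex interaction for 0 to 15 (15 without BPN/3J female 5), and for 11 without BPN/3J females 2 and 5, a choice made after seeing the data. The cause was not tested for any of these changes.

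With the replicate number as a block, 4 adrenal genes passed between strains in males, and 3498, 3590, 7322 and 7912 probe sets passed in the 4 label comparisons, with 0 in both interactions. The numbers belong to different mice: same-numbered arrays correlated at -0.567 to 0.444 in their deviations, and 0, 4, 0 and 2 of 6 arrays correlated best with their own number. Of single-gene results, 1711 were the same, 7 became stronger and 50 weaker with 1 array left out, and under other settings 827 were the same, 38 moved, 7 became stronger and 88 weaker. No called result reversed its direction. Among class differences that were not called, *Cyp17a1* went from 0.76 to -0.68 with the mean of the hepatocyte list as a covariate and *Apoe* from 0.28 to -0.08, and so did several genes of the hepatocyte list itself, such as *Apoh* (to -0.69). *Akr1c18* (-0.29 and 0.16) and *Inha* (0.32 and -0.04) differed in sign between males and females. RMA values hold no detection call, so dim genes have no stated limit of detection.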
